A study of Sus scrofa with 12 samples.

Results

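Cell cycle and mitosis genes were followed in Day 9 pig embryos of FE and SE sows. The group was defined by gene symbol, with earlier results of these data known. It took in cyclins A, B, D and E (CCN), cyclin-dependent kinases (CDK) and their inhibitors (CDKN), CDC genes, subunits 2 to 7 of the MCM helicase, kinesins (KIF), centromere proteins (CENP), Aurora kinases (AURK), Polo-like kinases 1 to 4 (PLK), BUB genes and NUSAP1. It held 108 of the 11905 genes with a symbol, read by 188 of the 18110 probes with a symbol. A single probe read 64 of them, and 44 were read by 2 to 6 probes. The symbols reach beyond cell division. They take in 10 genes named for CDC42 and its effectors, 19 kinesins of transport and other work, and 6 CDC genes of splicing, transcription, protein folding and translation, so these were described apart. The deposited values are ratios between FE and SE embryos and not levels, so the label could not be checked by how strongly its markers were expressed, and a ratio near 0 does not show that a gene was expressed.

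FE embryos came from primiparous sows inseminated at an oestrus that had been induced while they were still lactating. SE ("skip-a-heat") embryos came from primiparous sows in which the same lactational oestrus was induced but passed over, with insemination one oestrus later. The 3 sows of each group gave embryos that were recovered on Day 9 after ovulation and sexed by PCR. For each sow, 5 male embryos formed 1 pool and 5 female embryos another, and the pooled RNA was amplified in 1 round before Cy3 or Cy5 labelling. Every two-colour Agilent array set FE embryos against SE embryos of the same sex, so male and female embryos were never compared on 1 array. There were 3 male and 3 female sets of 2 arrays each, which makes 12 arrays. Male and female sets drew on the same sows of each group, and which sows entered which set is not stated in the labels, so the 6 sets are not fully independent. A pool also averages the spread between its embryos.

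The labels give FE embryos Cy3 and SE embryos Cy5 on all 12 arrays, yet call the second array of each set a dye swap. As deposited, the way first arrays departed from their common mean ran opposite to that of the swap arrays, with r = -0.71 over sets and rows. The swap arrays were therefore turned in sign and averaged with the first arrays, which gave 1 log2 ratio per gene and set. A positive ratio here has the sign of the first arrays. Whether that means more RNA in FE or in SE embryos is not settled by the sources used here, so no group is called higher, and the opposite reading turns every sign below. The arrays' medians lay within 0.0108 of 0 and their SD over probes ran from 0.333 to 0.472. Male sets 1 and 2 shared slide 1, female sets 1 and 2 shared slide 2, and male set 3 and female set 3 shared slide 3.

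Passage through the cell cycle is driven by cyclin-dependent kinases, each switched on by a cyclin that is made and destroyed in turn and held back by inhibitor proteins. D-type cyclins with CDK4 and CDK6 act in G1, E-type cyclins with CDK2 at the start of DNA replication, and A- and B-type cyclins with CDK1 up to mitosis. In mitosis, centromere proteins and checkpoint kinases attach chromosomes to a spindle that kinesin motors build and move, and the anaphase-promoting complex then ends the phase. The pig blastocyst at this age is a growing sphere of trophectoderm around an inner cell mass and hypoblast, and proliferation precedes its elongation.

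No cell cycle or mitosis gene passed the threshold between FE and SE embryos with both sexes in 1 comparison (limma, adjusted p under 0.05 over all 37564 rows). The count was 0 of 108 genes, against 0% of all rows. An unadjusted p under 0.05 was reached by 4 of the 108 (3.7%), against 6.13% of all rows, so the share was no larger than that of all rows. The mean ratios were small: 48 were positive and 60 negative, with a median of -0.01 log2 units for the 108 genes and -0.01 for all genes with a symbol. The median size of the mean ratio, sign set aside, was 0.06 log2 units for the 108 genes and 0.06 for all genes with a symbol. The largest size was 0.37. The 95% interval of the mean ratio stayed within 2-fold in either direction for all 108 genes, and within 1.5-fold for 95 of them. The same count was not made over all genes, and the intervals take the sets as independent, which they are not fully. In pools of whole embryos, fewer cells of a type and less RNA per cell cannot be told apart in any of these ratios. The smallest adjusted p among the 108 genes was 0.702, and over all rows it was 0.0541. The 4 genes under the unadjusted threshold, against 2304 of 37564 rows, were 11 with slide as a block, against 3612 rows. They were 11 without male set 3, against 2476 rows, and 2 without male set 1 and female set 1, against 1515 rows. With each probe on its own, 11 genes had at least 1 probe under the threshold, against 2593 of 43769 probes. The count was 16 with the first arrays alone, against 6898 rows, and 17 with the swap arrays alone, against 7476 rows. Both of these settings hold 1 array per set.

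**Figure D1:**
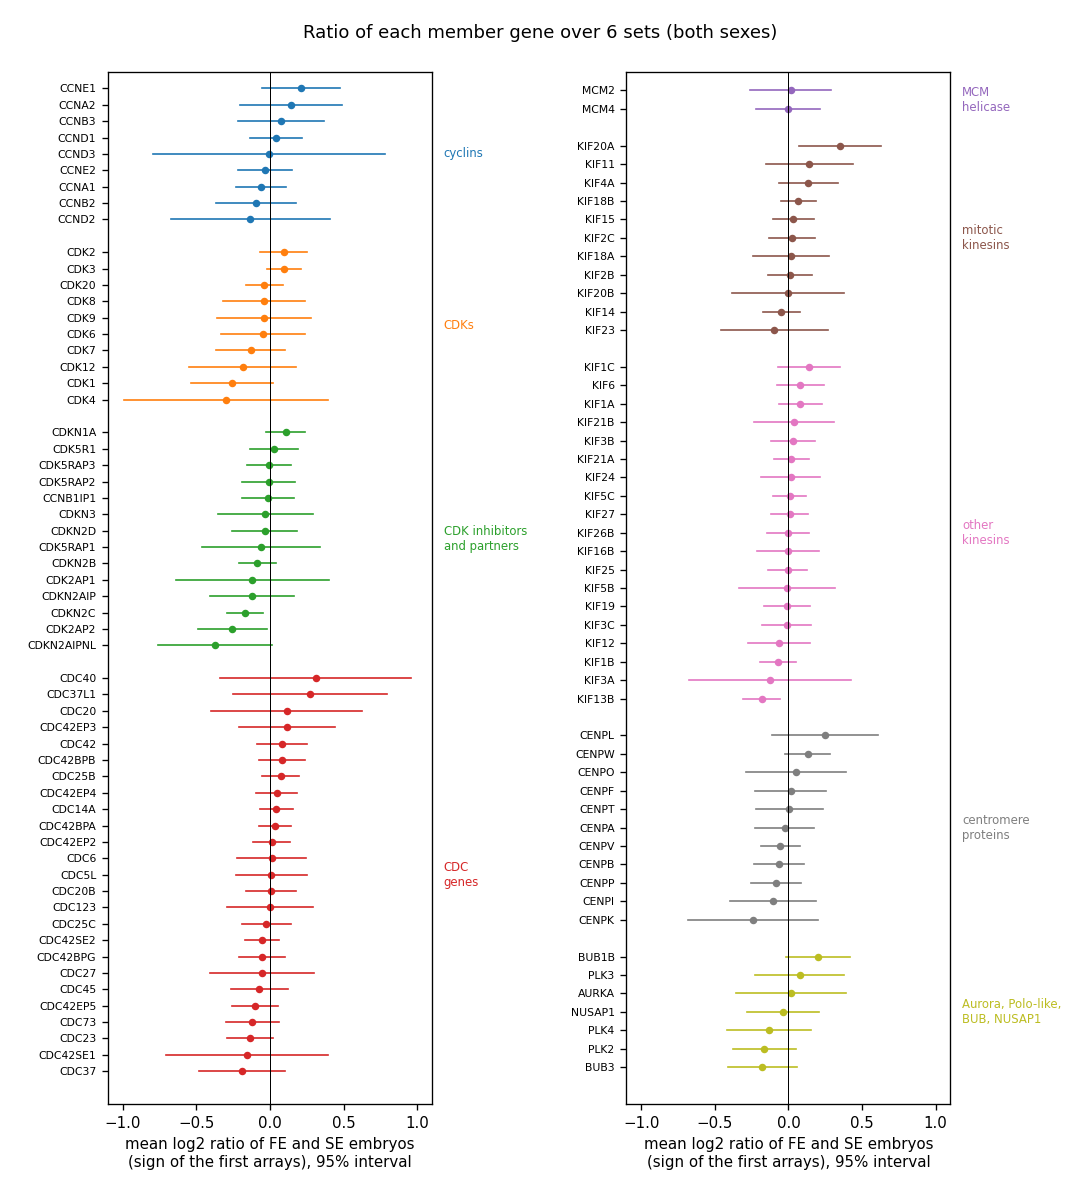
Mean log2 ratio of FE and SE embryos over the 6 sets for each of the 108 genes, in the sign of the first arrays (horizontal axis), with genes grouped by class down the page. Points are means and lines are limma's 95% intervals; the means lie between -0.37 and 0.35, and no gene passed the adjusted threshold.

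The genes that came nearest to a difference belonged to several classes. KIF13B, a kinesin of vesicle transport, had ratios of -0.21, -0.01 and -0.23 in male sets 1 to 3, and of -0.25, -0.19 and -0.20 in female sets 1 to 3. All 6 sets were negative, and male set 2 was close to 0. Its mean was -0.18 (SD 0.09, n = 6 sets; 95% interval -0.31 to -0.06; limma adjusted p = 0.702). CDKN2C, an inhibitor that binds CDK4 and CDK6, had ratios of -0.16, -0.32 and -0.19 in the male sets, and of -0.19, -0.11 and -0.04 in the female sets. Its sign was also the same in all 6 sets, with a mean of -0.17 (SD 0.09; limma adjusted p = 0.709). CDKN2B, an inhibitor of the same family, also kept 1 sign throughout, and its ratios lay between -0.27 and -0.03. Such agreement of sign was seen in 3 of the 108 genes (2.78%), against 3.7% of all genes with a symbol. KIF20A, a motor of cytokinesis, had ratios of -0.15, 0.61 and 0.53 in the male sets, and of 0.34, 0.58 and 0.19 in the female sets. Only male set 1 was negative, and the mean of 0.35 was the highest among the 108 genes (SD 0.29; 95% interval 0.07 to 0.63; limma adjusted p = 0.743). CDK2AP2, which is related to the CDK2-binding protein CDK2AP1, averaged -0.26 (SD 0.24; limma adjusted p = 0.775), and its one positive set was male set 2 at 0.02.

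Among the 9 cyclins, 4 mean ratios were positive and 5 negative, from -0.13 for CCND2 to 0.21 for CCNE1, and none passed the test. Among the D-type cyclins, which couple growth signals to G1, CCND2 and CCND3 differed between sets, as tested further on. CCND3 had ratios of -0.22, 0.85 and -0.67 in male sets 1 to 3, and of 0.37, 0.94 and -1.31 in female sets 1 to 3. It was high in set 2 of both sexes and low in set 3 of both sexes, so that its mean of -0.01 carries an SD of 0.89. CCND2 had ratios of 0.00, -0.65 and 0.32 in the male sets, and of 0.45, -1.09 and 0.18 in the female sets. Set 2 of both sexes was low for CCND2 and high for CCND3, and its mean was -0.13 (SD 0.61). CCND1 did not pass between sets (limma adjusted p = 0.166), with ratios of 0.30, 0.33 and -0.02 in the male sets, and of 0.04, -0.30 and -0.09 in the female sets. For CCNE1, a cyclin of the entry into S phase, ratios were -0.03, 0.05 and 0.33 in male sets 1 to 3, against 0.36, -0.11 and 0.66 in female sets 1 to 3. Set 3 was positive in both sexes, and the mean was 0.21 (SD 0.29; limma adjusted p = 0.876). CCNA2, the cyclin of S phase and the approach to mitosis, averaged 0.14 (SD 0.45) and was set apart by male set 3 at 0.95 and female set 3 at -0.42. CCNA1, CCNB2, CCNB3 and CCNE2 had means between -0.09 and 0.07.

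The cyclin-dependent kinases had negative mean ratios in 8 of 10 genes, with a median of -0.05, and none passed the test. CDK4, the partner of the D-type cyclins, had ratios of -0.48, 0.40 and -1.13 in the male sets, and of 0.18, 0.52 and -1.29 in the female sets. Like CCND3 it was positive in set 2 of both sexes and lowest in set 3 of both sexes. Its mean of -0.30 was the lowest of the class, with an SD of 0.79 and a 95% interval from -0.99 to 0.39. CDK6, which shares these cyclins, stayed between -0.43 and 0.20. CDK1, the kinase that starts mitosis, had ratios of -0.16, -0.42 and 0.40 in the male sets, and of -0.22, -0.57 and -0.58 in the female sets. Every set but male set 3 was negative, and its mean was -0.26 (SD 0.37; limma adjusted p = 0.834). CDK2, the kinase of S phase, averaged 0.09 (SD 0.16). CDK7, CDK8, CDK9 and CDK12, which act largely on the transcription machinery, had means between -0.19 and -0.04.

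**Figure D2:**
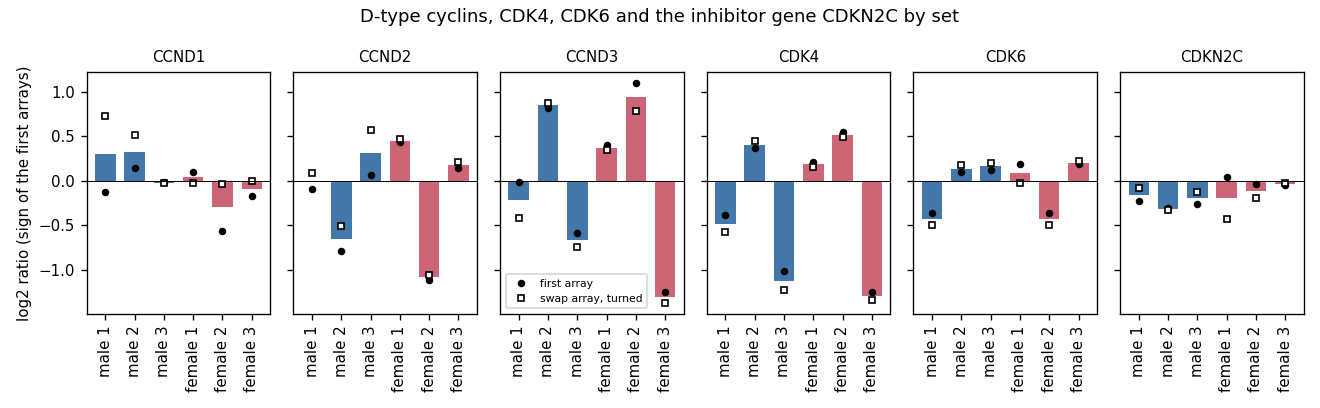
Log2 ratios of FE and SE embryos for the 3 D-type cyclin genes, CDK4, CDK6 and the inhibitor gene CDKN2C in male sets 1 to 3 and female sets 1 to 3 (bars are the means of the 2 arrays of a set, circles the first arrays, squares the turned swap arrays). CCND3 and CDK4 are positive in set 2 of both sexes and lowest in set 3 of both sexes, while CDKN2C stays between -0.32 and -0.04.

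Of the 14 CDK inhibitors and partner proteins, 12 mean ratios were negative and 2 positive, with a median of -0.05. None passed the adjusted threshold, and CDKN2C and CDK2AP2 were the 2 under the unadjusted one. CDKN2AIPNL, a relative of the p53 pathway protein CDKN2AIP, had ratios of -0.28, -0.21 and -0.78 in the male sets, and of 0.08, -0.04 and -1.005 in the female sets. Set 3 was lowest in both sexes, and the mean of -0.37 was the lowest of the 108 genes (SD 0.43; 95% interval -0.76 to 0.01; limma adjusted p = 0.823). CDKN1A, the p53-induced inhibitor of cyclin-dependent kinases, lay between -0.01 and 0.23 in the 6 sets. Its mean of 0.11 (SD 0.10; limma adjusted p = 0.876) was the highest of the class. CDK2AP1 had ratios of -0.31, 0.30 and 0.31 in the male sets, and of -0.05, 0.32 and -1.29 in the female sets. Female set 3 stood far below the other sets. CDK5RAP1, an enzyme that modifies mitochondrial transfer RNA, had the opposite exception, with 0.80 in female set 3 and -0.48 to -0.06 in the other sets.

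The 25 CDC genes had a median mean ratio of 0.01, with 14 positive and 11 negative and none past the threshold. CDC20, which activates the anaphase-promoting complex, had ratios of 0.45, 0.72 and -0.62 in the male sets, and of 0.39, 0.35 and -0.60 in the female sets. Sets 1 and 2 of both sexes were positive and set 3 of both sexes was negative, and the mean was 0.11 (SD 0.58). Among genes of the complex itself, CDC27 ran from -0.72 in female set 3 to 0.53 in male set 3, and CDC23 from -0.31 to 0.02. CDC6, which loads the replicative helicase at origins, had ratios of 0.08, -0.22 and 0.31 in the male sets, and of -0.06, -0.29 and 0.25 in the female sets. CDC25C, a phosphatase that switches CDK1 on, had 6 probes and averaged -0.03 (SD 0.16). The helicase subunits MCM2 and MCM4 averaged 0.02 (SD 0.29) and 0.00 (SD 0.22).

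The widest means in this class belonged to genes outside the cell cycle proper. CDC40, a splicing factor, had ratios of 0.01, -0.43 and 1.08 in the male sets, and of 0.12, -0.28 and 1.36 in the female sets. It was highest in set 3 of both sexes and lowest in set 2 of both sexes, the reverse of CCND3, and averaged 0.31 (SD 0.74). CDC37L1, a relative of the HSP90 partner CDC37, averaged 0.27 (SD 0.59), with 1.26 in female set 3. CDC37 itself was the lowest CDC gene, at -0.19 (SD 0.35), with -0.70 in male set 3 and 0.31 in female set 3. CDC42SE1, a small CDC42 effector, had ratios of -0.79, 0.55 and -1.24 in the male sets, and of 0.34, 0.38 and -0.17 in the female sets.

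Mitotic kinesins had positive mean ratios in 8 of 11 genes, with a median of 0.02, and KIF20A alone was under the unadjusted threshold. KIF11, which pushes spindle poles apart, had ratios of 0.17, 0.06 and 0.87 in the male sets, and of -0.06, 0.13 and -0.32 in the female sets. Male set 3 stood above the other sets, and the mean was 0.14 (SD 0.40; limma adjusted p = 0.938). KIF23, a motor of the midzone of the dividing cell, was lowest of the class at -0.10 (SD 0.41). The 19 other kinesins ran from -0.18 for KIF13B to 0.14 for KIF1C, a transport motor, with a median of 0.00.

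Centromere proteins were positive in 5 genes and negative in 6, with a median of -0.03. CENPK, a subunit of the inner kinetochore, had ratios of -0.29, -0.30 and 0.94 in the male sets, and of -0.65, -0.27 and -0.88 in the female sets. Male set 3 was the one positive set, and the mean of -0.24 was the lowest of the class (SD 0.63). CENPL, of the same complex, had the highest mean at 0.25 (SD 0.40), and CENPA, the histone H3 variant that marks centromeres, averaged -0.03 (SD 0.19). Of the kinases and checkpoint genes, BUB1B, a spindle checkpoint kinase, averaged 0.20 (SD 0.22; limma adjusted p = 0.84) and BUB3, its checkpoint partner, -0.18 (SD 0.24; limma adjusted p = 0.886). AURKA, a kinase of spindle poles, averaged 0.02 (SD 0.45), and NUSAP1, a microtubule-binding spindle protein, averaged -0.04 (SD 0.26).

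Within a single sex no gene passed either. In male embryos 0 of 108 were under an adjusted p of 0.05, against 0% of all rows, and 1 gene, CDKN2C, was under the unadjusted threshold, against 3.36% of all rows. Its male mean was -0.22 (SD 0.08, n = 3 sets; limma adjusted p = 0.9995). In female embryos the counts were 0, against 0% of all rows, and 4 unadjusted, against 5.03%. Those 4 were CENPW at 0.34 (SD 0.07, n = 3 sets; limma adjusted p = 0.978), KIF13B at -0.21 (SD 0.03), CDK1 at -0.45 (SD 0.20) and KIF4A at 0.31 (SD 0.25). KIF4A encodes a motor bound to chromosomes and CENPW a small subunit of the inner kinetochore.

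The difference between the male and the female ratio was tested in the same fit, and 0 of 108 genes passed, against 0% of all rows. CENPW was the 1 gene under the unadjusted threshold, against 1.95% of all rows. It had ratios of 0.13, -0.12 and -0.23 in the male sets, and of 0.28, 0.42 and 0.32 in the female sets. The sexes did not overlap, and the male minus female difference was -0.41 (95% interval -0.71 to -0.10; limma adjusted p = 0.9997). Every male set had one sign and every female set the other in 2 of the 108 genes, CDC42EP2 and KIF2B, against 2.03% of genes with a symbol. The next 3 genes by p were CDC42EP2, CCND1 and KIF4A, with differences of 0.23, 0.32 and -0.36. Over the 108 genes the median difference was 0.03 log2 units, and 61 of them were above 0. Slide 3 was the one slide with both sexes, so with slide as a block the difference rests on slide 3 alone, and its median was 0.08. Without female set 3 the median difference was -0.01.

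The 6 sets differed from each other in many of these genes. A moderated F test on the 12 arrays asked whether the 6 sets differed by more than the first and swap arrays of the same set did, so it describes these sets of sows and pools and says nothing of FE against SE. It passed in 54 of 108 genes (50%), against 37.9% of genes with a symbol and 35% of all rows (limma, adjusted p under 0.05). Between its lowest and highest set the median gene moved by 0.61 log2 units, and 25 genes (23.1%) moved by over 1 log2 unit, against 18.8% of genes with a symbol. CCND3 had the largest F (adjusted p = 1.91e-06), followed by CDK4 (adjusted p = 2.03e-06), CDC40 (adjusted p = 4.95e-06) and CDK2AP1 (adjusted p = 7.51e-06). CDC37L1, CCND2, CDC42SE1, KIF3A, AURKA, KIF20B, CDK5RAP1 and CENPK completed the first 12. The call for CDK5RAP1 was lost without female set 3 (adjusted p = 0.152), and that for CENPK without male set 3 (adjusted p = 0.0896). With all 6 sets the count of 54 genes stood against 13132 of the 37564 rows. Without male set 3 the count over all 108 genes was 35, against 10392 rows. With any other set left out it was between 47 and 55, against 10583 to 13231 rows.

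Genes of mitosis, listed by role, passed in 20 of the 27 measured (74.1%), and genes of S phase in 4 of 7 (57.1%). The share over all genes with a symbol, which stands beside each count here, was 37.9%. The 19 kinesins outside mitosis passed in 3 (15.8%), which were KIF3A, KIF5B and KIF16B, and CDC42 with its effectors in 3 of 10 (30%). The 6 CDC genes of splicing, transcription, protein folding and translation passed in 5 (83.3%). By class, 7 of 10 cyclin-dependent kinases, 6 of 9 cyclins, 7 of 11 centromere proteins and 6 of 11 mitotic kinesins passed. These shares are counts without a test between classes. The count for mitosis genes was 11 of 27 without male set 3, against 10392 of 37564 rows. It was between 17 and 20 with any other set left out, against 10583 to 13231 rows. The count for kinesins outside mitosis was 1 without male set 3 and 4 without male set 1. KIF3A, a motor of cilium building, had the largest F among the kinesins outside mitosis. Its ratios were -0.19, -0.80 and 0.47 in male sets 1 to 3, against -0.15, -0.79 and 0.69 in female sets 1 to 3. Like CDC40 it was lowest in set 2 of both sexes and highest in set 3 of both sexes.

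**Figure D3:**
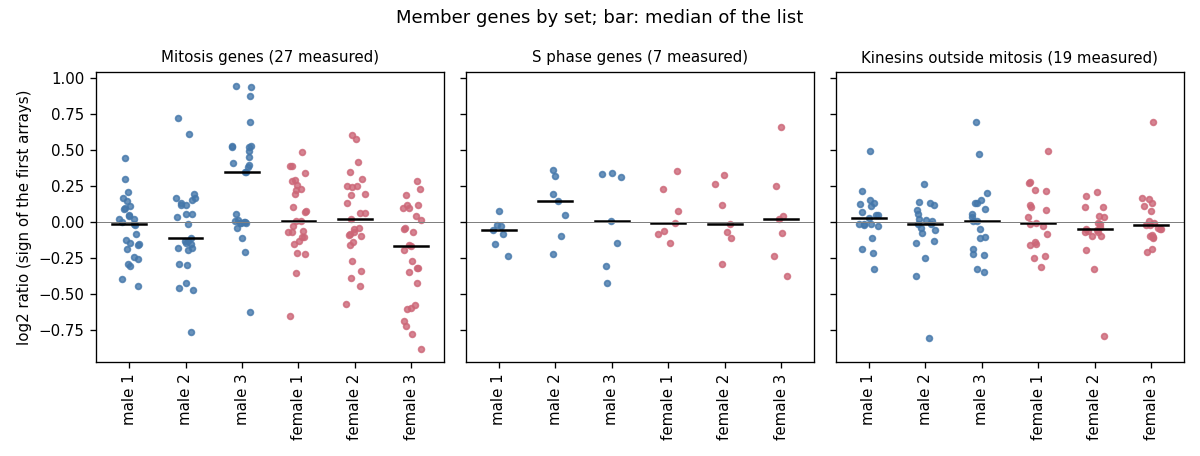
Log2 ratios of FE and SE embryos in each set (male sets 1 to 3, then female sets 1 to 3) for 27 mitosis genes, 7 S phase genes and 19 kinesins outside mitosis. Each point is a gene and each bar the median of the list; the mitosis median stands at 0.35 in male set 3 and at -0.16 in female set 3, while the medians of the kinesins outside mitosis stay between -0.05 and 0.03.

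How well 2 arrays of a set agreed bears on every value above. Over the 108 genes, the first and the turned swap array correlated at r = 0.16, 0.51 and 0.72 in male sets 1 to 3, and at r = 0.17, 0.62 and 0.87 in female sets 1 to 3. Set 3 had the closest arrays and the widest ratios in both sexes, with 19 genes over 0.5 in size in male set 3 and 24 in female set 3. Male set 1 had 1 such gene and female set 1 had 2, and the arrays of these sets agreed least. The wider ratios of set 3 were not particular to these genes. Over all genes with a symbol the SD was 0.398 in male set 3 and 0.369 in female set 3. In the other sets it was 0.223 to 0.305. Between sets, the ratios of the 108 genes correlated most in male set 2 with female set 2 (r = 0.64), and were most opposed in male set 2 with male set 3 (r = -0.42). Over all genes with a symbol the same pairs of sets had r = 0.53 and r = -0.21. These correlations run across genes, which are not independent replicates.

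**Figure D4:**
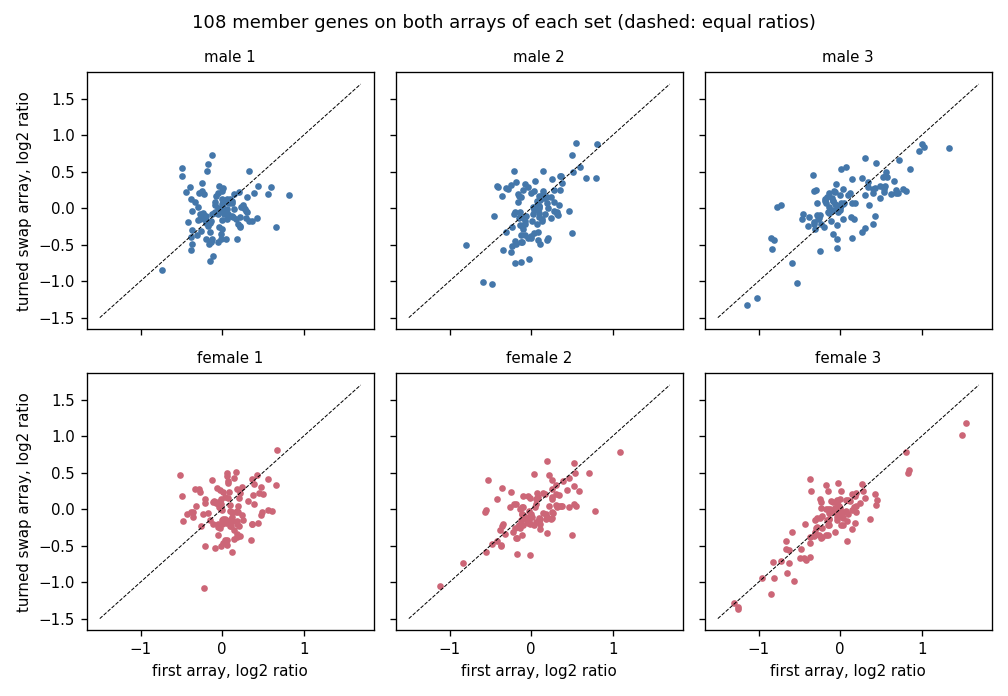
Log2 ratio of each of the 108 genes on the first array (horizontal axis) and on the turned swap array (vertical axis) of the same set, with male sets in the upper row and female sets in the lower row. Points near the dashed line agree between arrays, closely in male set 3 (r = 0.72) and female set 3 (r = 0.87) and little in male set 1 (r = 0.16) and female set 1 (r = 0.17).

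Genes of mitosis differed between male set 3 and female set 3, which lay on 1 slide. This contrast was chosen after the data were seen, and the list was made with earlier results of these data known. The counts that follow describe these sets and are no independent test of mitosis genes. Of the 27 measured, 21 had a higher ratio in male set 3 than in female set 3, with a median difference of 0.40 log2 units. Medians of the list were 0.35 in male set 3 and -0.16 in female set 3. Over all 108 genes it was 70, with a median difference of 0.08, and over all genes with a symbol it was 5909 of 11905, with a median difference of 0.00. With each difference tested against the spread between arrays, 34 of the 108 genes passed (31.5%), against 22.9% of genes with a symbol, 29 with the higher ratio in male set 3 and 5 with the lower. Over genes with a symbol that split was 1479 higher and 1243 lower. All 14 genes of the mitosis list among them had the higher ratio in male set 3. That list leaves out part of the 11 centromere proteins. Of these 11, 4 passed with the higher ratio in male set 3 and 1 with the lower. The latter was CENPW, which is not on the list (-0.55 log2 units, limma adjusted p = 0.0105). With 1 set of each sex on the slide, sow, pool and sex cannot be told apart in the difference between male set 3 and female set 3.

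The genes behind it act at several steps of mitosis. CENPK had 0.94 in male set 3 and -0.88 in female set 3, a difference of 1.81 (limma adjusted p = 2.4e-05). CCNA2 had 0.95 in male set 3 and -0.42 in female set 3, a difference of 1.36 (limma adjusted p = 2.5e-05). KIF11 had 0.87 in male set 3 and -0.32 in female set 3. In all 3 genes the other sets lay below male set 3, and sets 1 and 2 of both sexes lay between -0.06 and 0.20 for CCNA2 and KIF11. KIF23 differed by 1.04, with 0.69 in male set 3 and -0.34 in female set 3, where its 2 probes read 0.03 and -0.72. AURKA had 0.35 in male set 3 and -0.77 in female set 3, and CDC27, a subunit of the anaphase-promoting complex, had 0.53 in male set 3 and -0.72 in female set 3. CDK1 had 0.40 in male set 3 and -0.58 in female set 3, while CDC20 was low in both, at -0.62 in male set 3 and -0.60 in female set 3. Outside the mitosis list, CDK2AP1 differed by 1.60, and PLK4, the kinase of centriole duplication, by 1.03. The 3 probes of PLK4 read -0.24, -0.12 and -1.31 in female set 3, so its low value there rests largely on 1 probe. Higher in female set 3 were CDC42SE1, CDC37, CDK5RAP1, CDC37L1 and CENPW, by 0.55 to 1.06 in size.

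**Figure D5:**
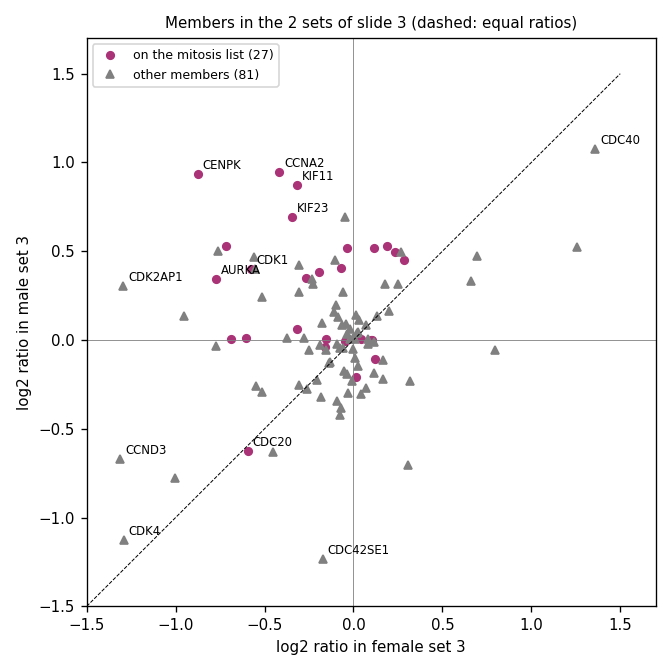
Log2 ratio of FE and SE embryos in male set 3 (vertical axis) and female set 3 (horizontal axis) for 27 mitosis genes (circles) and the 81 other genes (triangles); the dashed line marks equal ratios. Mitosis genes lie mostly above the line, 21 of 27, and the gene means of CENPK, CCNA2, KIF11 and KIF23 are positive in male set 3 and negative in female set 3. The contrast of these sets was chosen after the data were seen.

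The other slides each held sets of 1 sex. Male set 2 differed from male set 1 in 20 of the 108 genes, against 11.6% of genes with a symbol, with 13 higher and 7 lower in male set 2, against 809 higher and 568 lower over genes with a symbol. CDC42SE1, CCND3 and CDK4 had the largest positive differences, of 1.33, 1.06 and 0.89, and CENPI, an inner kinetochore gene, the largest negative one, of -0.77. Female set 2 differed from female set 1 in 15 genes, against 12.6% of genes with a symbol, with 4 higher and 11 lower in female set 2, against 863 higher and 637 lower over genes with a symbol. CCND2 was lower by 1.54 log2 units and CENPL by 1.04, and CDC27 was higher by 0.61. Mitosis genes did not lean to 1 side on these slides, with 2 higher and 2 lower in male set 2 and 2 higher and 3 lower in female set 2. Taken over differences within slides alone, 49 of the 108 genes passed (45.4%), against 31% of genes with a symbol.

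Markers of embryonic cell types also moved between sets. Trophectoderm markers passed the test between sets in 7 of 10 genes, hypoblast markers in 6 of 8 and epiblast markers in 4 of 7, against 37.9% of genes with a symbol. The median spread over the sets was 1.67 log2 units for trophectoderm markers and 0.47 for genes with a symbol. Medians of the trophectoderm list were 0.15, 0.07 and -0.09 in male sets 1 to 3, and 0.14, 0.04 and -0.22 in female sets 1 to 3. Uterine markers passed in 1 of 7 and blood markers in 0 of 6. Whether the cell make-up of the pools had a part in the differences of cell cycle genes was not tested. None of these markers passed between FE and SE embryos.

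Where a gene had several probes, their agreement over the sets varied from gene to gene. The median correlation between probes of a gene was positive in 33 of 44 genes. It ran from -0.80 for KIF5C to 0.92 for CDKN3, and was close to 0 for some, such as CDK5RAP3 (0.04) and CDKN1A (0.09). The span of the mean ratios of a gene's probes had a median of 0.14 log2 units. That is wider than the median size of the mean ratio of the 108 genes, 0.06. The 3 probes of AURKA read -0.78, -1.02 and -0.52 in female set 3, and those of CDK1 read -0.86, -0.74 and -0.13. All were negative, as were the 5 probes of CDKN3, a phosphatase that acts on cyclin-dependent kinases. A span over 0.5 was seen for 2 genes, KIF20B, a motor of cytokinesis, and NUSAP1. For KIF20B the 6 probes ran from -0.92 to 1.69 in female set 3, and for NUSAP1 the median correlation between probes was -0.55, so the means of these genes stand for no common value. Probes ran opposite to each other over the sets also for KIF5C (r = -0.80), a transport motor, CDK20 (r = -0.67) and CDC23 (r = -0.65). For CDC123, a translation factor assembly protein, the 4 probes ran from -0.87 to 0.97 in female set 3. CCNA2 had 1.00 and 0.89 on its probes in male set 3, but 0.07 and -0.90 in female set 3, so its low value there came from 1 probe, as did that of KIF23.

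Other genes of the cell cycle, which the symbols did not take in, were listed apart. Of 115 listed, 80 were measured, and 0 passed between FE and SE embryos, with 6 under the unadjusted threshold, against 6.13% of all rows. GINS1, a subunit of the replicative helicase, had ratios of -0.31, -0.25 and -1.08 in the male sets, and of -0.41, -0.55 and -0.41 in the female sets. All 6 were negative, with a mean of -0.50 (SD 0.30; limma adjusted p = 0.652). The other 5 were positive and included the condensin genes NCAPD2 (mean 0.36) and NCAPH (mean 0.20). Between sets 59 of the 80 passed (73.8%), against 37.9% of genes with a symbol. In 52 of the 80 the ratio was higher in male set 3 than in female set 3, against 5909 of the 11905 genes with a symbol, and the median difference was 0.23 log2 units.

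Taken as the labels give the dyes, without turning the swap arrays, the comparison of FE and SE embryos reads differently. Then 38 of the 108 genes passed (35.2%), against 36.3% of all rows, with 24 positive and 14 negative, and each of the 38 had a mean under 0.5 in size. CDK20, a kinase linked to cilia and growth whose 2 probes ran opposite over the turned sets, came first at -0.33 (limma adjusted p = 8.07e-04), and KIF20B had 0.25 (limma adjusted p = 0.00114). CCND3, CDK4, CCNA2, KIF13B and CDKN2C did not pass, and no gene passed between sets, against 0% of all rows. On that reading the arrays of a set oppose each other, with correlations from -0.87 to -0.16 over the 108 genes. If the dyes were swapped, the mean of unturned arrays does not compare FE with SE embryos.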

How the data were processed

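The deposited table holds 1 value per probe and array, read as a log2 ratio from its range of -4.99 to 5.97; the log base, background correction and normalization of the authors are not given in these sources. Of 43794 probes, 25 with a missing value were left out. Gene symbols are those of GEO's annotation of the platform. Probes of a gene were averaged, and each of the 25659 probes without a symbol kept its own row, which gave 37564 rows.

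The 2 arrays of a set were averaged after the swap array was turned in sign. Set ratios went into limma 3.58.1, run in R 4.3.3, with lmFit, eBayes and a mean for each sex. Contrasts were both sexes, each sex, and male minus female, with Benjamini-Hochberg adjustment over all rows at 0.05 and 95% intervals. Sets were compared by a moderated F test on the 12 arrays, with first or swap array as a covariate. Differences within slides came from the same kind of fit and were chosen after the data were seen. The fits were tested on simulated data first. The number of arrays limits the precision.

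Same-numbered male and female sets had deviations from their group means that correlated at 0.06, 0.40 and 0.27. Male and female sets of unlike number correlated at -0.34 to 0.04. The main fit did not take the numbers as pairs, and whether same-numbered sets share sows is not stated in the labels. Set number was used as a block in an alternative fit.

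Genes were classed by role, and lists were made for S phase, mitosis, other cell cycle genes and markers of trophectoderm, epiblast, hypoblast, uterus and blood. Members and lists were chosen with earlier results of these data known. Genes named were those of smallest p per contrast (6 for both sexes, 4 for each other), the 12 of largest F, the highest and lowest mean of each class, and a set of well-known cell cycle genes. Genes that stand out in a description, and the slide and probe examples, were chosen after their values were seen. Listed genes without a row, CCNB1, PLK1, BUB1, CDKN1B and CDKN1C among them, were not analysed here. Single-channel intensities, sequences and coordinates were not used here. Alternatives were single arrays, swap arrays not turned, scaling, probe summaries, robust eBayes, slide or set number as a block, and sets left out.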

Additional observations from a re-analysis of the deposited data

Results flagged for a closer look

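In 2 of the 108 genes every male set had one sign and every female set the other, against 2.03% of genes with a symbol. CDC42EP2, an effector of CDC42, had ratios of 0.09, 0.21 and 0.08 in the male sets, and of -0.21, -0.04 and -0.07 in the female sets. Its male minus female difference was 0.234 (95% interval -0.01 to 0.48; limma adjusted p = 0.9997). KIF2B, a kinesin that takes microtubules apart, had ratios of 0.06, 0.01 and 0.32 in the male sets, and of -0.07, -0.04 and -0.23 in the female sets. The difference was 0.242 (95% interval -0.06 to 0.54; limma adjusted p = 0.9997). The difference between the sexes did not pass the test in either gene, and several of the ratios are close to 0.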

How the results depend on the processing

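With the swap arrays not turned, 38 genes passed between FE and SE embryos (main count 0), 50 had an unadjusted p under 0.05 (main count 4), 0 passed between sets (main count 54), the median ratio was 0.0296 (main -0.00626) and the median male minus female difference -0.00664 (main 0.0330). The unadjusted count was 16 with first arrays alone, against 6898 of 37564 rows, and 17 with swap arrays alone, against 7476 rows. It was 11 with slide as a block, against 3612 rows, and 3 to 11 with each set left out, against 1615 to 2476 rows. Without male set 1 and female set 1, a choice made after seeing the data, it was 2, against 1515 rows. With every probe on its own, 11 genes had at least 1 probe under the threshold, against 2593 of 43769 probes. Between sets the count ran from 35 (without male set 3) to 55 with each set left out, against 10392 to 13231 of 37564 rows. It was 58 with symbol rows alone, against 4874 of 11905 rows. With every probe on its own, 62 genes had a probe that passed, against 16503 of 43769 probes. With each set left out, the median ratio ran from -0.0171 to 0.0281 and the median difference from -0.00521 to 0.0524; the difference was 0.0803 with slide as a block and 0.0674 without male set 1 and female set 1. The difference with slide as a block is that of male set 3 minus female set 3, since no other slide held both sexes. The cause of the other shifts was not tested. With the set number as a replicate block (correlation 0.124), 0 genes passed, 4 were under the unadjusted threshold and the median ratio was -0.00626. The main fit had no call that the block could remove, so whether shared sows matter was not tested by it. Of 40 named genes, 0 changed the sign of the mean ratio with scaled arrays, 7 with first arrays, 4 with swap arrays, 3 with probe medians, 20 with swap arrays not turned and 3 to 7 with a set left out. Robust eBayes, symbol rows alone and either block leave the mean ratios and their median as they are. No sign could change in those settings, so they are no check of it. Without single-channel signals, how far dim probes limit these counts could not be measured.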
